A study of Mus musculus with 81 samples.

Results

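Most of the 32 genes here carry glucose into the cell, break it down to pyruvate and lactate, or move lactate across the plasma membrane. Some act in the pentose phosphate pathway, which takes up glucose 6-phosphate. The others regulate phosphofructokinase or belong to the hypoxia response and the pyruvate switch. All 32 were chosen by gene symbol from all 25124 genes of each of the 6 deposited count tables. No cutoff on a measured value was used, but earlier results of these data were known when the genes were chosen. They comprise the glucose transporters Slc2a1 and Slc2a3, the hexokinases Hk1, Hk2 and Hk3, and the upper glycolytic genes Gpi1, Pfkl, Pfkm, Pfkp, Aldoa, Aldoc and Tpi1. The phosphofructokinase regulators are Pfkfb3 and Pfkfb4. The lower glycolytic genes are Gapdh, Pgk1, Pgam1, Eno1, Eno2 and Pkm. Ldha, Ldhb, Slc16a1 and Slc16a3 interconvert pyruvate and lactate or carry lactate, Pdk1, Hif1a, Bnip3 and Egln3 belong to the hypoxia response and the pyruvate switch, and G6pdx, Pgd, Tkt and Taldo1 belong to the pentose phosphate pathway.

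Glycolysis yields ATP and biosynthetic intermediates in the cytosol. Lactate dehydrogenase turns its end product pyruvate into lactate and restores NAD+, and monocarboxylate transporters let the lactate leave. The pentose phosphate pathway branches off at glucose 6-phosphate and supplies NADPH and ribose. Many glycolytic genes are direct targets of hypoxia-inducible factor, whose alpha subunit is marked for degradation by prolyl hydroxylases of the Egln family. Microglia, the resident macrophages of the brain, are known to raise glycolysis when they take on inflammatory or phagocytic states, and cells that clear myelin debris meet a heavy metabolic load.

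The study profiled microglia sorted from the brains of adult male mice on a C57BL/6 background, fed regular diet (called baseline below) or a diet with 0.2% cuprizone, which binds copper, is toxic to oligodendrocytes and causes loss of myelin. WT and Trem2KO mice received the diet for 4 weeks, Cx3cr1CreERT2/WT controls (Cre controls below) and Cx3cr1CreERT2/WT::Mef2afl/fl mice (Mef2aKO) for 5 weeks, and Cre controls and Cx3cr1CreERT2/WT::Egr2fl/fl mice (Egr2KO) for 6 weeks. Trem2 is a lipid-sensing surface receptor of microglia, and Mef2a and Egr2 are transcription factors. The baseline gate took cells low for CD44, CD45 and CD11b, without a gate on CD229, CD11c or Clec7a. At 4 and 6 weeks cells were split into CD229-negative CD11c-negative (CD229-negative below), CD229-positive CD11c-negative (CD229-positive) and CD229-positive CD11c-positive (CD11c-positive) fractions. At 5 weeks the Clec7a-negative cells lacked all 3 proteins, the Clec7a-positive cells carried Clec7a alone, and Clec7a+CD229+ and Clec7a+CD229+CD11c+ cells carried the further proteins. Trem2KO cells were sorted into CD229-negative and CD229-positive fractions, and whole populations of Cre control and Egr2KO microglia were profiled at 5 weeks. Baseline Mef2aKO cells were also split by CD229. Groups held 3 libraries, with 4 in both Trem2KO 4-week groups and 2 in Mef2aKO 5-week Clec7a-negative, Mef2aKO baseline CD229-positive, Egr2KO baseline and both whole-population groups. Each library pooled the brains of 2 to 6 mice, so a p-value here measures the spread between pools. The Cx3cr1 promoter that drives the inducible Cre is also active in other macrophages of the brain, and the Cre controls carry the same allele.

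All 81 libraries held between 4387075 and 13972985 counts, with a median of 9549766. Levels are given as CPM, the count scaled to a common library total. Trem2 mRNA was at 347 to 411 CPM in WT and 87.5 to 122 CPM in Trem2KO baseline libraries, and at 596 to 650 against 146 to 165 CPM in CD229-positive cells. Mef2a counts did not check the Mef2aKO label: they ran from 928 to 1065 CPM in Cre controls and from 797 to 929 CPM in Mef2aKO at baseline, and in Clec7a-negative cells the libraries labelled Mef2aKO were the higher ones, at 856 to 926 against 768 to 856 CPM. The part of Mef2a that was deleted is not given in the sources used here. Egr2 mRNA was at 65.2 and 68.8 CPM in Cre control and 18.4 and 26.5 CPM in Egr2KO whole populations, and the Egr2KO and Cre control ranges overlapped in 6-week CD229-positive cells (21.2 to 42.5 against 31.3 to 64.3 CPM). Ly9, which encodes CD229, was higher in Clec7a-negative Cre control cells (99.7 to 109 CPM) than in Clec7a-positive ones (28.4 to 59.4 CPM), although both gates are labelled CD229-negative. The sum of 8 microglial markers was 6102 to 14430 CPM, while 7 neuronal markers summed to at most 5.30 CPM and 7 neutrophil markers to at most 22.6 CPM. Sums were 160.5 to 225.4 CPM for oligodendrocytes, 82.6 to 261.4 CPM for astrocytes, 6.39 to 34.6 CPM for monocytes and, over 8 markers, 11.5 to 371.6 CPM for border macrophages. The 12 endothelial markers summed to 64.66 to 352.6 CPM. Among them Flt1 reached 316.4 CPM and Pecam1 88.55 CPM, while Cldn5 never passed 0.246 CPM. Reads of Gapdh, Pgk1, Eno1, Ldha, Aldoa, Pgam1 and Tpi1 can be shared with pseudogenes or close copies, so their counts are less certain.

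Hypoxia-inducible factor binds a short core motif, and 4 member promoters are shown because these genes carried the most copies of it among the members picked by the rule for named genes (Pfkfb3 tied with Pfkp). The core was written ACGTG or GCGTG and searched on both strands of 300-base RefSeq windows (GRCm38.p6), 250 bases before to 50 bases after each annotated start. The palindrome CACGTG counts once for each strand. The first 250 bases are printed 5′ to 3′ on the gene's strand, with the core in capitals.
Ldha promoter: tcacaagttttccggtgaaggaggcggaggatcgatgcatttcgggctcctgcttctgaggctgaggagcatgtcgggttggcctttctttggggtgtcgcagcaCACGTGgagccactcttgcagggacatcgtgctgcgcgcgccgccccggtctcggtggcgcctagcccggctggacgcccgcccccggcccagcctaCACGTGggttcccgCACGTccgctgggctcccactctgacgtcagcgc
Bnip3 promoter: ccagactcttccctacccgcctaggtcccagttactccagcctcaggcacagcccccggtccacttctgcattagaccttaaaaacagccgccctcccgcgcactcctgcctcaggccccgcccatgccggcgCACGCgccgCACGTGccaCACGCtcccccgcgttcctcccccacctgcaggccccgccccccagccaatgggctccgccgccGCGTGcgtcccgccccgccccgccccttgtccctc
Hk1 promoter: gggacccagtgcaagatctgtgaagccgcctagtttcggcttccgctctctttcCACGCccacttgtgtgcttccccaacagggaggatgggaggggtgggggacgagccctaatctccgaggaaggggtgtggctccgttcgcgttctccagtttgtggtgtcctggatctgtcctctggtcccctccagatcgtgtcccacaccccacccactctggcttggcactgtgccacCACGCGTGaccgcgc
Pfkfb3 promoter: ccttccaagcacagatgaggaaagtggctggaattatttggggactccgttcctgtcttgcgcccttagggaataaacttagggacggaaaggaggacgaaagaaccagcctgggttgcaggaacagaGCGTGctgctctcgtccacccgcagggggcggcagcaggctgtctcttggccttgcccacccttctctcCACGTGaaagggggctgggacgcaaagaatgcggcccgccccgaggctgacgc
Ldha encodes the lactate dehydrogenase subunit that favours lactate. Its printed sequence lies at chr7:46845554-46845803 on the plus strand and holds 5 of the 7 matches in its window, with CACGTG in 2 places. Bnip3, a mitophagy receptor, has its 5 matches in chr7:138909507-138909756 on the minus strand. The Hk1 stretch, chr10:62340422-62340671 on the minus strand, holds 3 of 5 matches and no CACGTG, and the Pfkfb3 stretch, chr2:11502091-11502340 on the minus strand, holds 3 of 4. A window was found for 31 members, all but Slc2a3. Of these, 28 (90.3%) had the core in at least 1 window, against 46.7% of the 27025 genes with promoter windows. Those genes were not limited to expressed ones. Counted by window, 80% of 45 member windows and 43.8% of 32851 windows of all genes had the core. At least 2 matches in 1 window were present for 20 members (64.5%), against 22.9% of genes. Eno2, Gpi1 and Tpi1 had none in these windows. The match is a description of letters and was not tied to any binding measurement. Hk1 was lower where Ldha and Bnip3 were higher in the WT CD229 step described further on.

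Per kilobase of listed transcript, WT baseline microglia held most Aldoa (138 ± 11 CPM per kb, SD, n = 3), the main aldolase, and Ldhb (130 ± 11), the lactate dehydrogenase subunit that favours pyruvate. Neither was separable from the other by its spread. Hk2, the inducible hexokinase, followed at 85.6, ahead of Pgd, Pkm and Hk3 at 78.6, 76.0 and 67.1 CPM per kb. Ldha stood 7th at 63.5. The lowest were Egln3 (0.826), Aldoc (0.81) and the neuronal enolase Eno2 (0.543). In CD229-positive cells at 4 weeks the order was Aldoa (363), Pkm (307), the pyruvate kinase, Ldha (235), Tpi1 (163) and Gpi1 (145), with Ldhb 7th at 135 CPM per kb.

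In WT mice after 4 weeks of cuprizone and in Cre controls after 5 weeks, most members were higher than at baseline already in the cells that lacked CD229; in the other genotypes and at 6 weeks 6 to 14 were called. This step, cuprizone CD229-negative or Clec7a-negative cells against baseline cells of the same genotype, changes both the diet and the gate, since baseline cells were not split. A gene is called changed where edgeR's quasi-likelihood test gave an adjusted p under 0.05 over all genes tested. In WT at 4 weeks 22 of 29 tested members were higher and the other 7 did not pass, against 18.8% of all genes higher. The median log2 difference of the members was 0.74 and that of all genes 0.00. Calls covered both glucose transporters, 6 of 6 lower glycolytic genes and 3 of 4 pentose phosphate genes. The other 7 were Hk1, Hk3, Pfkm, Pfkp, Ldhb, Pdk1 and G6pdx.

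Egln3, the prolyl hydroxylase that is itself a hypoxia target, moved most. Its level was 2.06, 2.20 and 2.35 CPM in WT baseline libraries and 34.6, 39.0 and 54.0 CPM in CD229-negative cells at 4 weeks, a log2 difference of 4.30 ± 0.19 (SE; adjusted p = 1.2e-15) or 19.7-fold. No cuprizone library came near the baseline range. Slc2a1, the main insulin-independent glucose transporter (chr4:119108745-119137329 in mm10), was at 78.9, 82.5 and 79.1 CPM at baseline and at 140, 145 and 177 CPM after the diet, a 1.98-fold difference (log2 0.99 ± 0.09, adjusted p = 8.0e-10). Ldha went from 96.0, 101 and 110 CPM to 186, 184 and 235 CPM (log2 1.02 ± 0.08, adjusted p = 1.4e-10). Neither gene had overlapping libraries. Tpi1 (1.35 ± 0.09, adjusted p = 2.7e-12) and Pgk1 (1.34 ± 0.11, adjusted p = 1.7e-10), which act on triose phosphates and 1,3-bisphosphoglycerate, rose by similar amounts on the log2 scale.

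Hk2 and Pfkfb3 had smaller log2 differences than Pfkl, the main phosphofructokinase of these cells, which went from 128, 92.3 and 121 to 196, 181 and 235 CPM (log2 0.89 ± 0.11, adjusted p = 3.2e-07) with no overlap. Hk2 was at 492, 422 and 496 CPM at baseline and 550, 508 and 533 CPM in CD229-negative WT cells (log2 0.22 ± 0.07, adjusted p = 0.015). Pfkfb3, whose product makes the allosteric activator fructose 2,6-bisphosphate, was at 300, 293 and 279 against 354, 356 and 398 CPM (log2 0.39 ± 0.06, adjusted p = 4.4e-06). Both were abundant at baseline and their libraries did not overlap between diets. Hif1a, the oxygen-regulated transcription factor, went from 179, 190 and 171 to 261, 286 and 335 CPM (log2 0.75 ± 0.08, adjusted p = 4.3e-08). G6pdx, the entry enzyme of the pentose phosphate pathway, was at 90.5, 92.2 and 104 against 97.0, 100 and 97.3 CPM (log2 0.08 ± 0.07, adjusted p = 0.39), with overlapping libraries.

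For Slc16a3, the lactate exporter MCT4, and for Pfkfb4 and Aldoc, the WT and Trem2KO tables at 4 weeks list different transcripts, and the shared WT baseline libraries differ by 26, 6 and 1 reads. These 3 genes were therefore left out of the joint test at 4 weeks and were fitted separately with rows matched by symbol. So matched, Slc16a3 went from 79.6, 70.9 and 70.7 CPM at baseline to 165, 149 and 200 CPM in CD229-negative WT cells (log2 1.25 ± 0.11, adjusted p = 8.7e-10). Its libraries did not overlap between diets.

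**Figure D1:**
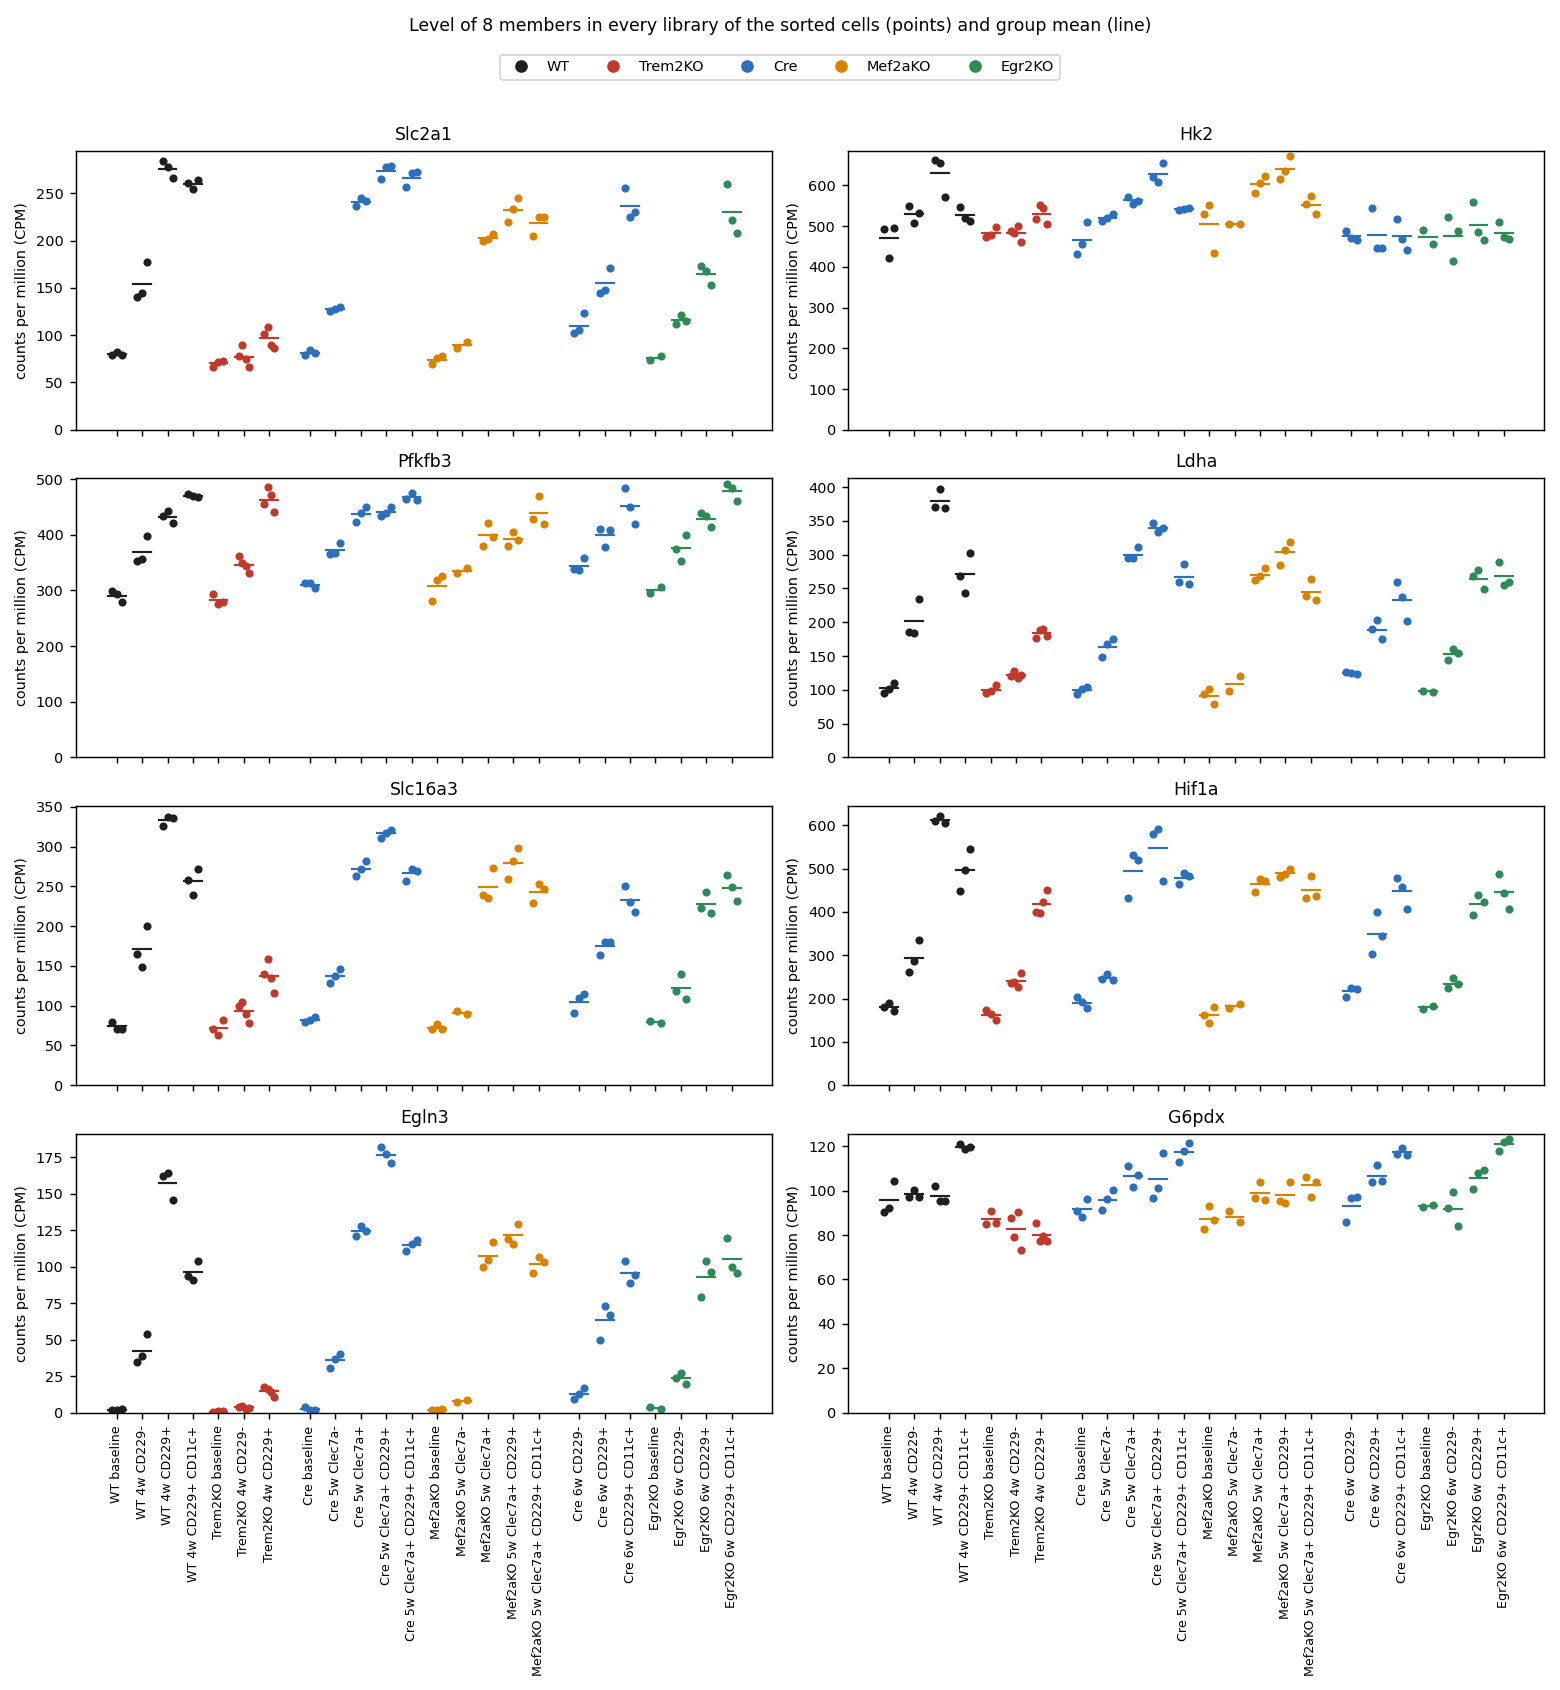
Level of 8 members in CPM (vertical axes from 0) in every library of the sorted cells (points) with the mean of each group (line), groups ordered by experiment and gate and coloured by genotype. Slc2a1, Ldha, Slc16a3, Hif1a and Egln3 climb from baseline to the CD229-positive WT cells, Egln3 to 146 to 165 CPM, while G6pdx stays between 73.5 and 123 CPM in the sorted cells of the 3 experiments.

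Fewer members were called for this step in the other experiments. At 5 weeks in Cre controls 19 of 32 members were higher, against 15.5% of genes, with a median of 0.34. At 6 weeks 7 were higher in Cre controls (background 5.03%) and 14 in Egr2KO (background 6.52%). The 3 Cre control baseline libraries serve at both times, so these steps are not independent. Slc2a1, Tpi1, Eno2, Slc16a3 and Egln3 were called in Cre controls at 5 and at 6 weeks. Egln3 stood at 4.26, 2.20 and 1.89 CPM in Cre control baseline libraries, at 30.4, 36.7 and 40.5 CPM in Clec7a-negative cells at 5 weeks and at 9.39, 12.8 and 17.1 CPM in CD229-negative cells at 6 weeks. All cuprizone libraries were above baseline, and the 6-week libraries lay below the 5-week ones, a difference between gates and experiments that was not tested. The 6-week Cre control count fell to 3 without baseline replicate 1, without 6-week replicate 2 or without replicate 3, and the Egr2KO count fell to 7 and 8 without baseline replicates 1 and 2. Both Egr2KO baseline libraries, no Cre control baseline library, and replicates 2 and 3 of each 6-week group carry a PE150 tag in their titles. Leaving out tagged libraries leaves 1 library in each 6-week group, so no count is given for such a fit. The member median of the 6-week Cre control step was 0.16 in that fit and 0.12 with all libraries.

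Among cuprizone cells at 5 weeks, those carrying Clec7a, a pattern-recognition receptor raised on activated microglia, held more of most members than Clec7a-negative cells. In Cre controls 23 of 32 members were higher and 1, Pfkfb4, was lower, against 20.9% of genes higher and 17% lower, with a median of 0.67. Egln3 was at 30.4, 36.7 and 40.5 CPM in Clec7a-negative and at 121, 128 and 125 CPM in Clec7a-positive libraries (log2 1.85 ± 0.10, adjusted p = 8.6e-16). Pgk1, the first ATP-yielding enzyme of glycolysis, went from 34.4, 34.8 and 42.2 to 72.0, 78.6 and 77.5 CPM (log2 1.09 ± 0.10, adjusted p = 1.5e-10). Hif1a went from 246, 256 and 243 to 433, 533 and 519 CPM (log2 1.05 ± 0.09, adjusted p = 2.8e-11). In none of these genes did the fractions overlap. Slc16a3 was at 128, 137 and 146 against 263, 272 and 281 CPM (log2 1.04 ± 0.07), Ldha at 149, 168 and 175 against 294, 295 and 311 CPM (0.93 ± 0.08), and Slc2a1 at 125, 128 and 130 against 237, 245 and 242 CPM (0.97 ± 0.06). These 3 genes of glucose uptake and lactate handling did not overlap between fractions either. G6pdx was also higher, at 111, 101 and 107 against 91.5, 96.1 and 100 CPM (log2 0.21 ± 0.07, adjusted p = 0.018). Hk2 did not pass (0.17 ± 0.07, adjusted p = 0.058). Pfkfb4, a bifunctional relative of Pfkfb3, fell from 122, 130 and 146 to 123, 99.9 and 100 CPM (-0.24 ± 0.08, adjusted p = 0.026), with overlapping libraries. Border macrophage markers averaged 29.9 CPM in Clec7a-negative and 133 CPM in Clec7a-positive Cre control cells, with 7 of 8 higher, and their part in this step was not tested.

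At 4 weeks WT cells that carried CD229, a surface receptor of the SLAM family, held more of most members. CD229-positive cells had 23 of 29 members higher and 2 lower than CD229-negative cells, against 24.6% of genes higher and 24.2% lower, with a member median of 0.72. Egln3 rose again, from 34.6, 39.0 and 54.0 to 162, 165 and 146 CPM (log2 1.91 ± 0.13, adjusted p = 2.0e-12). Bnip3 went from 40.4, 49.0 and 46.4 to 99.1, 97.6 and 93.2 CPM (1.12 ± 0.09, adjusted p = 1.1e-10). Pfkp, the platelet-type phosphofructokinase, was low but higher in CD229-positive cells, at 3.20, 3.15 and 3.22 against 10.0, 6.97 and 7.60 CPM (1.38 ± 0.27, adjusted p = 0.00013). Each of these fractions stood apart from the other. Slc2a1 reached 284, 278 and 266 CPM (0.87 ± 0.08), Ldha 370, 397 and 369 CPM (0.94 ± 0.08) and Hif1a 610, 621 and 605 CPM (1.09 ± 0.08). Slc16a3, matched by symbol, reached 326, 337 and 337 CPM (1.01 ± 0.10). The glycolytic kinases Pfkl (0.89 ± 0.11), Pkm (0.91 ± 0.09) and Pgk1 (1.09 ± 0.10) rose by similar amounts. Hk2 and Pfkfb3 had smaller differences: Hk2 was at 663, 655 and 573 CPM (0.27 ± 0.07, adjusted p = 0.0013) and Pfkfb3 at 433, 443 and 421 CPM (0.25 ± 0.06, adjusted p = 0.0004).

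The exceptions were the other hexokinases. Hk1, the constitutive isoform bound to mitochondria, was at 45.5, 53.6 and 53.6 CPM in CD229-negative and 36.8, 31.7 and 42.6 CPM in CD229-positive WT libraries, a fall of 0.43 ± 0.10 on the log2 scale (adjusted p = 0.0011). Hk3, the hexokinase typical of myeloid cells, fell by 0.21 ± 0.06 (adjusted p = 0.007), from 228, 213 and 235 to 188, 193 and 195 CPM. Libraries of the fractions did not overlap for either gene. G6pdx was at 102, 95.4 and 95.2 CPM in CD229-positive cells and did not pass (0.01 ± 0.07). Pfkfb4, matched by symbol, fell by 0.39 ± 0.07 on the log2 scale (adjusted p = 1.8e-05).

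At 5 weeks, where CD229 was split among Clec7a-positive cells only, the step was small. In Cre controls 4 members were higher, against 2.1% of genes: Egln3 (0.50 ± 0.09, adjusted p = 0.00057), Slc2a3 (0.42 ± 0.11), Pfkl (0.33 ± 0.10) and Slc16a3 (0.22 ± 0.07). Egln3 was at 121, 128 and 125 CPM in Clec7a-positive and 182, 177 and 171 CPM in Clec7a+CD229+ libraries. Each library of either fraction carried this count: it was 1 or 2 when any one of the 6 was left out. In Mef2aKO no member passed edgeR's test, 8 had an unadjusted p under 0.05, DESeq2 called 1, and 0.47% of genes were called in either direction. The count was 1 without Clec7a+CD229+ replicate 1. At 6 weeks, without a Clec7a gate, 19 members were higher in Cre controls (background 10.7%, median 0.45) and 19 in Egr2KO (background 14.7%, median 0.56). Egln3 went from 9.39, 12.8 and 17.1 to 49.7, 73.2 and 66.9 CPM in Cre controls (2.23 ± 0.17, adjusted p = 5.3e-09), with no overlap. Border macrophage markers moved with this step: their sum averaged 80.8 CPM in CD229-negative and 294 CPM (range 154.5 to 371.6) in CD229-positive Cre control cells, with 6 of 8 markers higher, and 56.5 against 169 CPM in Egr2KO. Their part in the glycolytic step was not tested; in WT at 4 weeks 1 of the 8 was higher and 1 lower. With the replicate number as a block, which the pairing check allowed for this step, 21 members were called in each genotype: Pfkp (0.57) and Aldoc (1.55) were added in Cre controls and Pfkp (0.64) and Pgd (0.25) in Egr2KO. Tagged libraries gave 17 and 18 calls in Cre controls and Egr2KO. Untagged libraries, 1 per group, had member medians of 0.44 and 0.63.

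**Figure D2:**
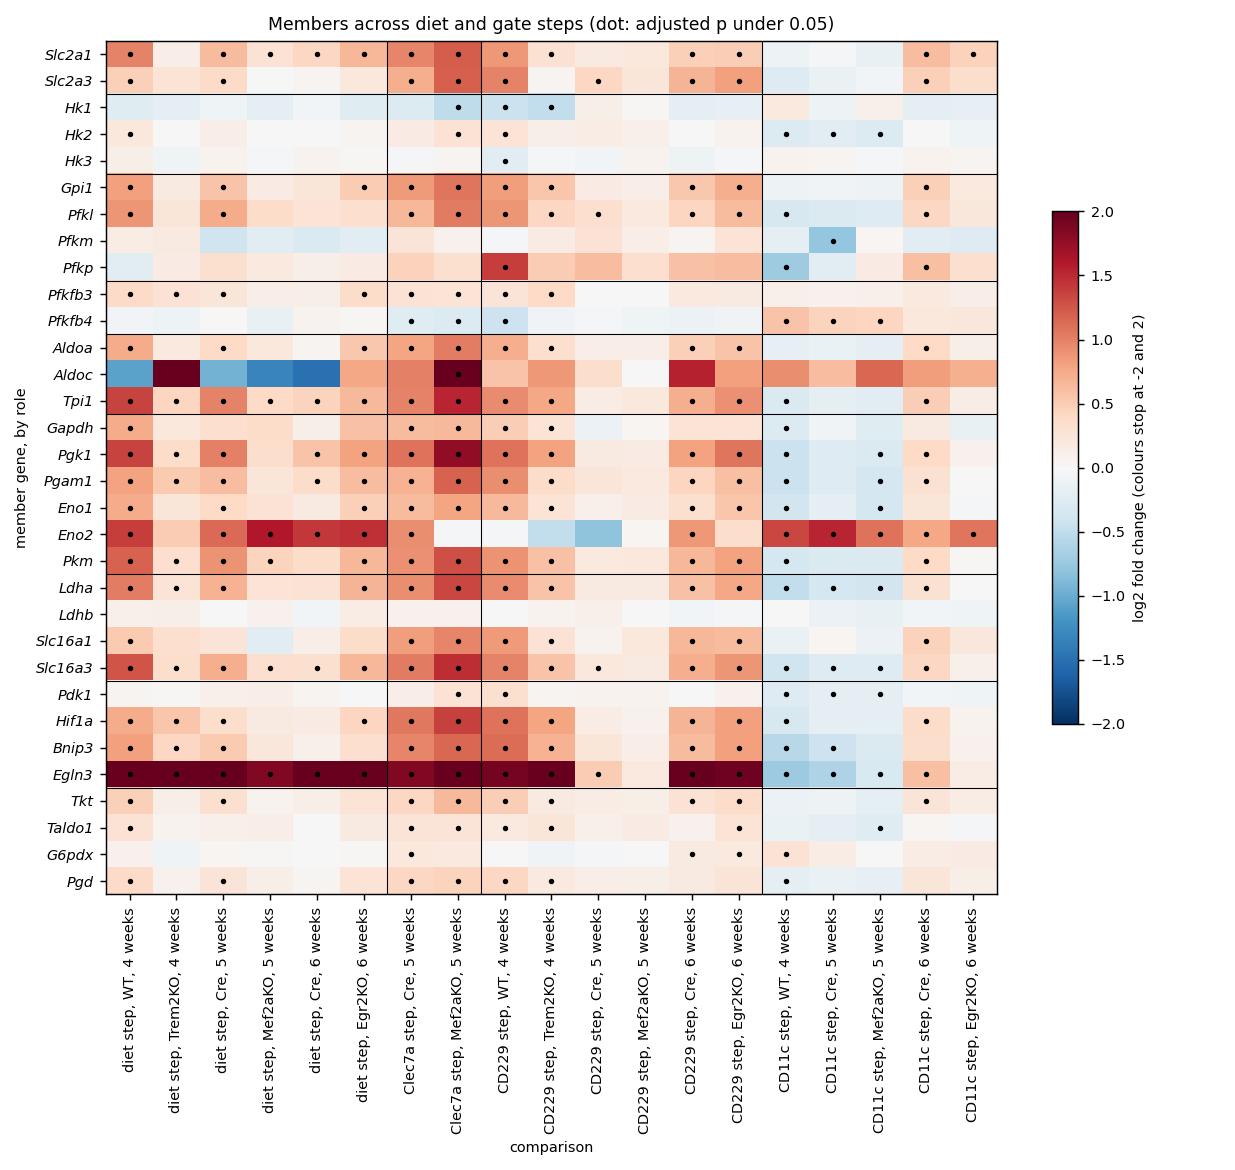
Log2 difference of each member (rows, grouped by role) in the 19 step comparisons (columns), shown as colour between -2 and 2 with larger values drawn at the end of the scale; dots mark an adjusted p under 0.05. Diet, Clec7a and CD229 steps are mainly higher, CD11c steps are lower at 4 and 5 weeks and higher in Cre controls at 6 weeks, and Ldhb carries no dot. Pfkfb4, Aldoc and Slc16a3 at 4 weeks come from each deposited table fitted alone.

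Adding CD11c, an integrin of activated microglia and dendritic cells, went with lower glycolytic levels at 4 and 5 weeks. In WT CD11c-positive cells 15 of 29 members were lower than in CD229-positive cells and 2 were higher, against 11.5% of genes lower and 11.8% higher, with a median of -0.25. Egln3 was at 93.5, 91.1 and 104 CPM against 162, 165 and 146 CPM in CD229-positive libraries (-0.73 ± 0.12, adjusted p = 4.8e-05). Bnip3 was at 64.1, 73.8 and 60.7 CPM against 99.1, 97.6 and 93.2 CPM (-0.56 ± 0.09, adjusted p = 3.2e-05), and Pfkp at 5.31, 5.72 and 4.03 against 10.0, 6.97 and 7.60 CPM (-0.72 ± 0.26, adjusted p = 0.044). None of the 3 overlapped. Ldha fell to 268, 243 and 302 CPM (-0.50 ± 0.08) and Hif1a to 448, 498 and 545 CPM (-0.31 ± 0.08), both still above the CD229-negative libraries. Hk2 fell by 0.28 ± 0.07 on the log2 scale, to 546, 520 and 512 CPM. Slc2a1 (261, 254 and 264 CPM, -0.10 ± 0.08) and Pfkfb3 (474, 470 and 467 CPM, 0.11 ± 0.06) did not pass. Eno2 and G6pdx were the 2 higher genes: Eno2 at 12, 9.75 and 7.93 against 5.41, 3.20 and 3.12 CPM (1.33 ± 0.34, adjusted p = 0.0052) and G6pdx at 121, 119 and 120 against 102, 95.4 and 95.2 CPM (0.28 ± 0.07, adjusted p = 0.0033). Slc16a3, matched by symbol, fell by 0.40 ± 0.10 and Pfkfb4 rose by 0.57 ± 0.07.

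At 5 weeks Cre controls had 7 members lower and 2 higher, against 7.25% and 6.85% of genes. Egln3 (-0.62 ± 0.09), Ldha (-0.35 ± 0.08), Slc16a3 (-0.25 ± 0.07), Hk2, Pfkm, Pdk1 and Bnip3 were lower, and Eno2 (1.53 ± 0.25) and Pfkfb4 (0.44 ± 0.08) were higher. Mef2aKO had 9 lower and 2 higher (backgrounds 5.6% and 5.14%), Eno2 and Pfkfb4 again being the higher ones. This total of 11 moved to 7, 3, 4, 21 and 2 without Clec7a+CD229+ replicates 2 and 3 and Clec7a+CD229+CD11c+ replicates 1, 2 and 3. The difference between the genotypes in this step was called for no member (edgeR; 2 with an unadjusted p under 0.05, DESeq2 0, background 0.053%). Of the 15 members lower in WT, 5 were also lower in Cre controls at 5 weeks, which is 33.3% of the first list and 83.3% of the second among members tested in both. Of all 12610 genes tested in both, 774 were lower in both, 53.2% and 82% of their lists.

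In Cre controls at 6 weeks the called members of the CD11c step were all higher. Cre control CD11c-positive cells had 17 of 32 members higher than CD229-positive cells, against 8.64% of genes, with a median of 0.33. Slc2a1 went from 145, 148 and 171 to 255, 225 and 230 CPM (0.62 ± 0.09, adjusted p = 1.5e-05), Egln3 from 49.7, 73.2 and 66.9 to 104, 89.1 and 94.7 CPM (0.61 ± 0.15, adjusted p = 0.0044), and Slc16a3 from 164, 181 and 180 to 250, 230 and 218 CPM (0.42 ± 0.08, adjusted p = 0.00054). These 3 genes of uptake, oxygen sensing and export had no overlap. Ldha went from 190, 203 and 175 to 259, 238 and 201 CPM (0.31 ± 0.10, adjusted p = 0.036), with overlapping libraries. There were 9 members lower in WT at 4 weeks and higher here: Pfkl, Pfkp, Tpi1, Pgk1, Pgam1, Pkm, Ldha, Hif1a and Egln3. Among the 29 members tested in both, they are 60% of the lower list and 56.2% of the higher list, while 68 of all 12592 genes tested in both had this pattern, 4.69% and 6.19% of their lists. In CD11c-positive cells Egln3 was at 91.1 to 104 CPM at 4 weeks and 89.1 to 104 CPM at 6 weeks, and Ldha at 243 to 302 and 201 to 259 CPM. CD229-positive cells held 146 to 165 and 49.7 to 73.2 CPM of Egln3. The experiments differ in genotype, duration and library set, so the reversal was not tested between them. Border macrophage markers averaged 294 CPM in CD229-positive and 108 CPM in CD11c-positive Cre control cells at 6 weeks, 2 of 8 lower, and their part in the reversal was not tested. The count was 8, 7 and 9 without CD229-positive replicate 3, CD11c-positive replicate 1 and CD11c-positive replicate 2, and 6 among tagged libraries. Member medians were 0.22 in tagged libraries and 0.52 in untagged ones, which are 1 per group.

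In Egr2KO 2 of 32 members were higher at this step, near the share of all genes (5.44%). These were Slc2a1 (0.46 ± 0.09, adjusted p = 0.0011) and Eno2 (1.08 ± 0.23, adjusted p = 0.0022). Slc2a1 was at 173, 167 and 153 CPM in CD229-positive and 260, 222 and 208 CPM in CD11c-positive libraries. Ldha (268, 277 and 249 against 288, 255 and 260 CPM) overlapped and did not pass. Border macrophage markers averaged 169 and 36.9 CPM in these fractions, with 6 of 8 lower, and their part was not tested. Eno2 thus rose with CD11c in all 5 settings in which the step was measured. The difference of the step between Egr2KO and Cre controls was called for no member (edgeR; 6 with an unadjusted p under 0.05, DESeq2 0, background 0).

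**Figure D3:**
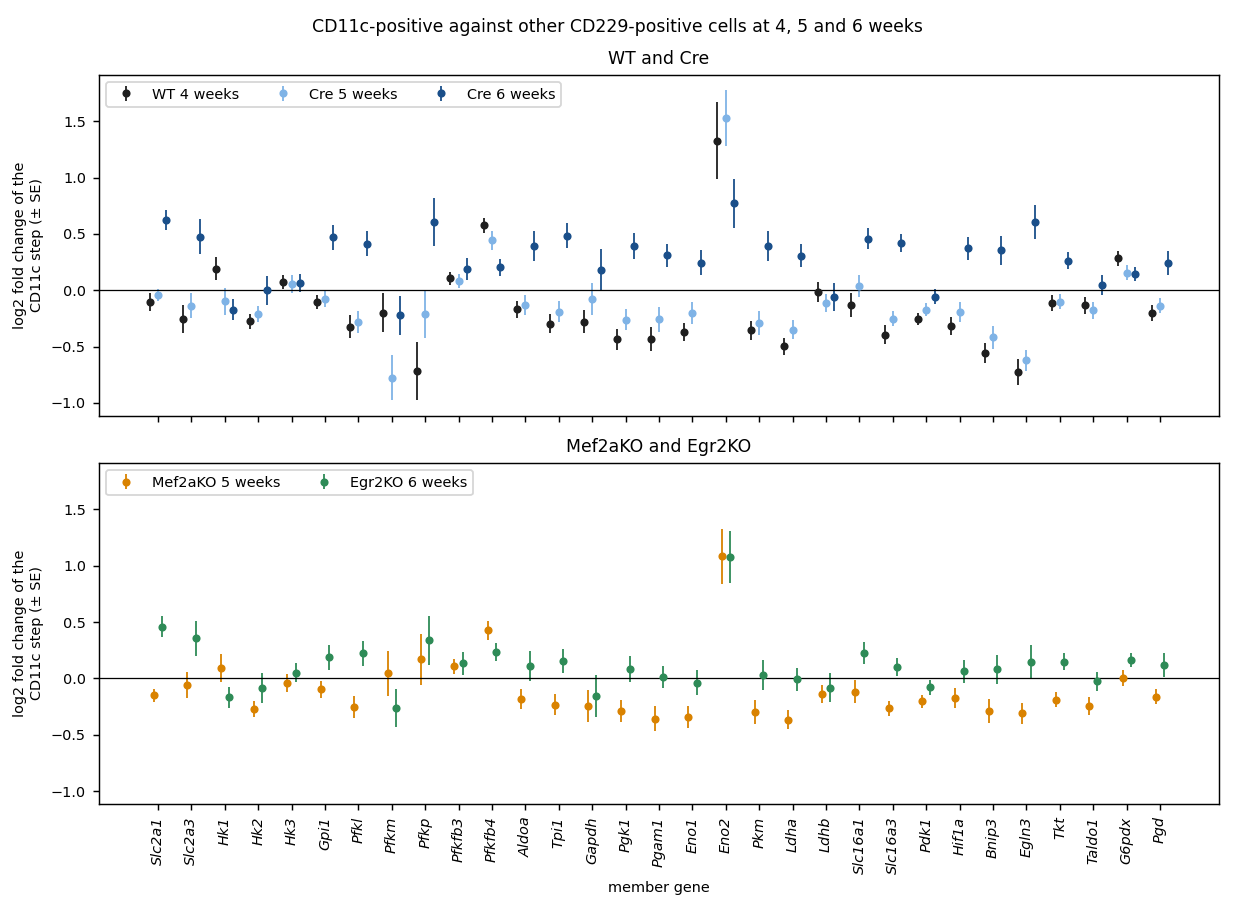
Log2 difference of CD11c-positive against CD229-positive (or Clec7a+CD229+) cells for 31 members, Aldoc left out, with the SE as error bars; the upper panel shows WT at 4 weeks and Cre controls at 5 and 6 weeks, the lower one Mef2aKO at 5 and Egr2KO at 6 weeks. WT values are mostly below 0 (median -0.25) and 6-week Cre control values mostly above it (median 0.33), while Eno2 is above 0 in every setting.

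Loss of Trem2 left glycolytic levels at baseline without a called change and went with lower levels under cuprizone. At baseline no member passed (edgeR; 2 with an unadjusted p under 0.05, DESeq2 1 lower), against 0.577% of genes in either direction, and the edgeR count was 1 without Trem2KO baseline replicate 2. Egln3, low in both genotypes, was at 0.418 to 1.22 CPM in Trem2KO and 2.06 to 2.35 CPM in WT baseline libraries. These did not overlap (-1.33 ± 0.39, adjusted p = 0.17 by edgeR). In CD229-negative cells at 4 weeks 20 of 29 members were lower in Trem2KO than in WT, against 13.1% of genes, with a median of -0.38. In CD229-positive cells 24 were lower and 1, Hk3, was higher (0.15 ± 0.06, adjusted p = 0.032), against 26.5% and 26% of genes, with a median of -0.90. Pfkfb4, matched by symbol and outside these counts, was also higher in the CD229-positive cells (0.28 ± 0.06, adjusted p = 0.00047). Itgax, which encodes CD11c, was at 242 to 262 CPM in these WT and 29.2 to 36.9 CPM in these Trem2KO libraries. Clec7a was at 564 to 621 against 131 to 145 CPM. The part of these 2 genes' states in the result was not tested. Since all cells are bulk sorted, fewer cells in a glycolytic state and less RNA per cell cannot be told apart here or in any other comparison.

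Egln3 was at 162, 165 and 146 CPM in WT and 18, 16.3, 14.1 and 10.6 CPM in Trem2KO CD229-positive libraries (-3.46 ± 0.13, adjusted p = 7.3e-18). Slc2a1 was at 284, 278 and 266 against 102, 108, 90.0 and 86.7 CPM (-1.58 ± 0.08, adjusted p = 2.4e-15). Pgk1 was at 97.2, 90.5 and 89.9 against 37.5, 34.7, 37.0 and 36.2 CPM (-1.42 ± 0.09, adjusted p = 6.8e-13). The genotypes did not overlap in any of the 3, and Trem2KO CD229-positive cells held less Slc2a1 and Egln3 than CD229-negative WT cells (140 to 177 and 34.6 to 54.0 CPM). Ldha was at 370, 397 and 369 against 176, 188, 190 and 179 CPM (-1.12 ± 0.07), and Hif1a at 610, 621 and 605 against 400, 398, 423 and 450 CPM (-0.62 ± 0.07). Slc16a3, matched by symbol, was at 326, 337 and 337 against 139, 158, 135 and 116 CPM (-1.35 ± 0.10, adjusted p = 5.5e-12). Of the other lactate genes, the transporter gene Slc16a1 was lower by less (-0.92 ± 0.10) and Ldhb did not pass. Hk2 differed less (-0.32 ± 0.06, adjusted p = 0.0001) and G6pdx was at 85.6, 77.3, 79.6 and 77.3 CPM in Trem2KO (-0.36 ± 0.07, adjusted p = 5.1e-05). Pfkfb3 did not pass, at 455, 486, 471 and 441 against 433, 443 and 421 CPM (0.03 ± 0.05, adjusted p = 0.66), and neither did Hk1 and Pfkm.

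The steps themselves were compared between the genotypes. Under cuprizone 9 members rose in CD229-negative Trem2KO cells (background 5.42%, median 0.21): Pfkfb3, Tpi1, Pgk1, Pgam1, Pkm, Ldha, Hif1a, Bnip3 and Egln3. Slc16a3, matched by symbol and outside this count, rose there too (0.36 ± 0.10, adjusted p = 0.035). Slc2a1 did not pass there, at 66.1, 71.8 and 72.8 CPM at baseline and 78.2, 89.2, 74.6 and 66.7 CPM after the diet (0.13 ± 0.08, adjusted p = 0.45). The difference of the diet steps, Trem2KO minus WT, was below 0 for 12 members (background 3.17%), among them Egln3 (-2.21 ± 0.49), Pgk1 (-0.98 ± 0.16), Slc2a1 (-0.86 ± 0.12) and Ldha (-0.74 ± 0.11). For Slc16a3, matched by symbol, it was -0.89 ± 0.15 (adjusted p = 0.00059). The Trem2KO CD229 step had 19 members higher and 1, Hk1, lower (backgrounds 14.8% and 12.7%, median 0.28). Its difference from the WT step was below 0 for 13 members (background 5.77%), including Slc2a3 (-0.93 ± 0.17), Slc2a1 (-0.56 ± 0.11) and Ldha (-0.37 ± 0.11), with 7 left without WT CD229-negative replicate 1, replicate 2 or CD229-positive replicate 2. Matched by symbol, this difference was 0.32 ± 0.09 for Pfkfb4 (adjusted p = 0.011) and -0.44 ± 0.14 for Slc16a3 (adjusted p = 0.03). Egln3 had CD229 steps of 1.91 ± 0.13 in WT and 2.00 ± 0.18 in Trem2KO, and Pfkfb3 of 0.25 ± 0.06 and 0.40 ± 0.05, and neither difference passed. Border macrophage markers averaged 103 and 123 CPM in WT and 26.4 and 94.8 CPM in Trem2KO CD229-negative and CD229-positive cells, with 6 of 8 higher and 1 lower in the Trem2KO CD229 step. Proliferation genes moved the same way in most diet, Clec7a and CD229 steps. Of the 14 on a cell cycle list, 13 of 13 tested were higher in the WT diet step and 13 in the WT CD229 step. At 5 weeks 14 of 14 were higher in the Cre control diet step and 11 in the Mef2aKO one, and 7 were lower in their difference. The Clec7a steps had 11 higher in Cre controls and 14 in Mef2aKO, and the 5-week CD229 steps 0. At 6 weeks 11 and 12 were higher in the Cre control and Egr2KO diet steps, and 12 and 14 in their CD229 steps. In the 5-week CD11c steps 13 were lower in Cre controls and 8 in Mef2aKO. In the WT CD11c step 12 were lower, and 12 and 11 were lower in Trem2KO CD229-negative and CD229-positive cells. The list median of the CD229 step was 1.42 in Trem2KO and 1.06 in WT, unlike the members. In the 6-week CD11c steps 4 of 14 in Cre controls and 10 of 14 in Egr2KO were lower and 0 higher, while the called members were higher. The part of either list in these results was not tested.

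**Figure D4:**
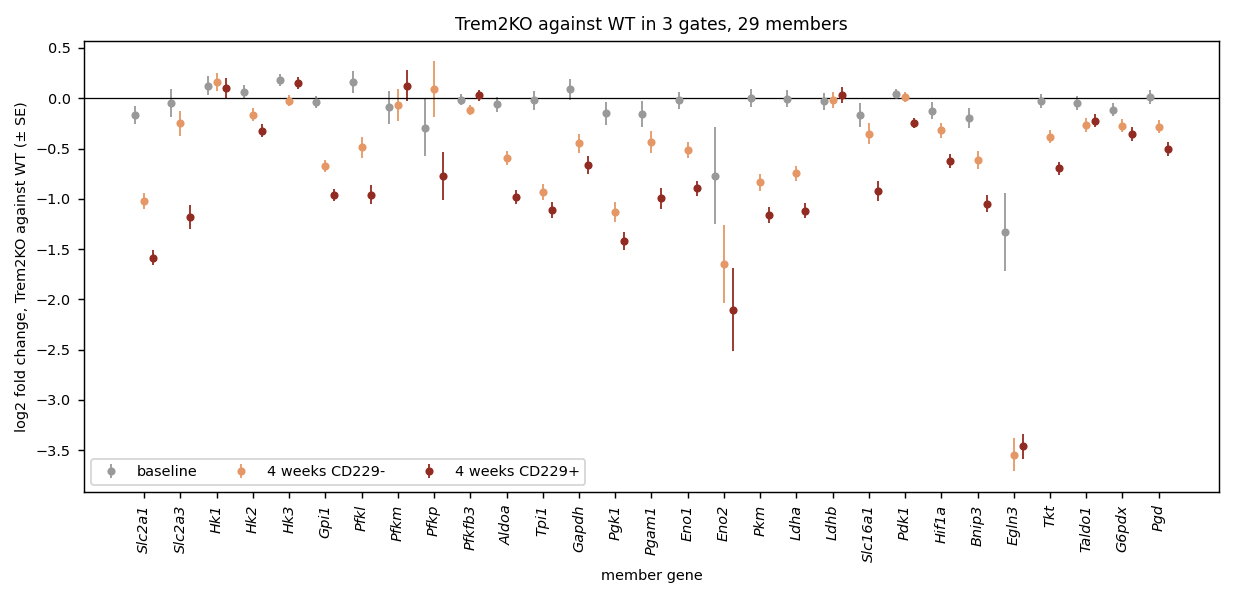
Log2 difference of Trem2KO against WT for the 29 jointly tested members in baseline, CD229-negative and CD229-positive cells, with the SE as error bars. At baseline most values lie around 0, with Egln3 at -1.33 and Eno2 at -0.77, neither called. Under cuprizone values lie below 0 for most members, reaching -3.46 for Egln3 in CD229-positive cells, while Hk3 and Pfkfb3 stay near 0.

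Members lower in Mef2aKO cells than in Cre controls were called mainly in the Clec7a-negative gate. In the Clec7a-positive and the Clec7a+CD229+CD11c+ gates 1 of 32 members was called, near the share of all genes given in the next paragraph. In Clec7a-negative cells at 5 weeks 12 members were lower, against 3.91% of genes, with a median of -0.29. Egln3 was at 30.4, 36.7 and 40.5 CPM in Cre controls and 7.25 and 8.76 CPM in the libraries labelled Mef2aKO (-2.13 ± 0.16, adjusted p = 4.3e-11). Pgk1 was at 34.4, 34.8 and 42.2 against 19.4 and 21.1 CPM (-0.84 ± 0.13), and Slc2a1 at 125, 128 and 130 against 86.4 and 93.1 CPM (-0.48 ± 0.07, adjusted p = 1.3e-05). Ldha was at 149, 168 and 175 against 97.8 and 121 CPM (-0.55 ± 0.10), and Slc16a3 at 128, 137 and 146 against 92.9 and 89.2 CPM (-0.56 ± 0.08). In each of these genes the 2 libraries labelled Mef2aKO were the lowest. Tpi1, Gpi1, Pfkl, Pgam1, Pkm, Hif1a and Bnip3 were lower too, and Hk2 (506 and 506 CPM against 512 to 531), Pfkfb3 and G6pdx did not pass. Without Mef2aKO replicate 1 the count was 6. The gate genes differed as well: Clec7a was at 147 to 179 CPM in Cre control and 94.1 and 104 CPM in Mef2aKO Clec7a-negative libraries, and Itgax, which encodes CD11c, at 83.8 to 94.6 against 42.9 and 52.3 CPM. Their part in the result was not tested. Border macrophage markers averaged 29.9 CPM in these Cre control and 13.2 CPM in these Mef2aKO libraries, and their part was not tested.

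In the Clec7a-positive gates fewer members passed, and the test of the Clec7a step itself, given in the next paragraph, called 3. Slc2a1 alone was lower in Clec7a-positive cells (-0.24 ± 0.06, adjusted p = 0.01, background 2.23%) and in Clec7a+CD229+CD11c+ cells (-0.32 ± 0.06, adjusted p = 0.00038, background 2.35%). Slc2a1, Hk1 (-0.44 ± 0.12), Bnip3 (-0.46 ± 0.10) and Egln3 (-0.51 ± 0.09) were lower in Clec7a+CD229+ cells (background 2.81%). Slc2a1 was at 237, 245 and 242 against 200, 202 and 207 CPM in Clec7a-positive, 266, 278 and 279 against 220, 233 and 245 CPM in Clec7a+CD229+, and 256, 272 and 272 against 205, 225 and 225 CPM in Clec7a+CD229+CD11c+ libraries. It was lower in every library labelled Mef2aKO of all 4 cuprizone gates. At baseline Pdk1, the kinase that shuts pyruvate dehydrogenase, was the 1 called member (224, 218 and 230 against 213, 194 and 178 CPM, -0.20 ± 0.06, adjusted p = 0.042, background 2.08%). These small counts moved with single libraries: the baseline count was 0 without Cre control replicate 1 or 2 or Mef2aKO replicate 2 and 2 without Mef2aKO replicate 3, the Clec7a-positive count was 0 without Cre control replicate 3 or Mef2aKO replicate 1, the Clec7a+CD229+ count was 2 without Mef2aKO replicate 1 or 2, and the Clec7a+CD229+CD11c+ count was 4 without Mef2aKO replicate 2.

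The Clec7a step in Mef2aKO had 24 members higher and 2, Hk1 and Pfkfb4, lower (backgrounds 24.8% and 21%, median 0.88). Its difference from the Cre control step was above 0 for Egln3 (1.91 ± 0.19, adjusted p = 4.6e-08), Pgk1 (0.69 ± 0.16) and Slc16a3 (0.43 ± 0.10), against 1.7% of genes. Egln3 went from 7.25 and 8.76 to 99.7, 105 and 117 CPM in these libraries. That count was 5 without Clec7a-negative Cre control replicate 1 and 1 without Cre control replicate 3, Mef2aKO Clec7a-negative replicate 1 or Clec7a-positive replicate 3. Aldoc was also called higher in the Mef2aKO step, but it rests on 1 and 2 reads against 16, 5 and 21 reads and no fold is given. The diet step in Mef2aKO had 6 members higher, Slc2a1, Tpi1, Eno2, Pkm, Slc16a3 and Egln3 (background 5.01%, median 0.18), and 3 without Clec7a-negative replicate 2. Its difference from the Cre control diet step was below 0 for Egln3 (-1.79 ± 0.31, adjusted p = 0.0011) and Tpi1 (-0.60 ± 0.16, adjusted p = 0.043), against 1.33% of genes, and this count ranged from 1 to 6 as libraries were left out. It was 1 without baseline Cre control replicate 1, baseline Mef2aKO replicate 2, Clec7a-negative Cre control replicate 2 or 3, or Mef2aKO replicate 1, 4 without baseline Cre control replicate 3, and 6 without baseline Mef2aKO replicate 3 or Clec7a-negative Cre control replicate 1. The CD229 step did not differ for any called member (edgeR; 2 with an unadjusted p under 0.05, DESeq2 0, background 0). Splitting baseline Mef2aKO cells by CD229 gave no called member (edgeR; 2 with an unadjusted p under 0.05, DESeq2 1, background 0.15%), nor did baseline CD229-positive Mef2aKO cells against Cre control baseline cells (4 with an unadjusted p under 0.05, DESeq2 0, background 1.59%). Ly9 separated that split, at 17.8 to 34.5 against 149 and 151 CPM.

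Egr2KO cells held more of 6 members than Cre controls in the CD229-positive fraction at 6 weeks, against 1.42% of genes higher, with a median of 0.25. Ldha was at 190, 203 and 175 CPM in Cre controls and 268, 277 and 249 CPM in Egr2KO (0.53 ± 0.10, adjusted p = 0.0056). Slc16a3 was at 164, 181 and 180 against 222, 243 and 217 CPM (0.42 ± 0.08, adjusted p = 0.007), and Egln3 at 49.7, 73.2 and 66.9 against 79.5, 104 and 96.4 CPM (0.61 ± 0.15, adjusted p = 0.029). Tpi1 (0.53 ± 0.11), Pgam1 (0.47 ± 0.10) and Gpi1 (0.43 ± 0.11), all enzymes of the main glycolytic chain, were the other 3. Every Egr2KO library was above every Cre control library in these genes, whereas Slc2a1 (145, 148 and 171 against 173, 167 and 153 CPM) overlapped and did not pass. The count was 10 without Cre control replicate 2 and 1 without Cre control replicate 3 or Egr2KO replicate 2. It was 5 among tagged libraries and 11 both by DESeq2 and with the replicate number as a block. Untagged libraries, 1 per group, had a member median of 0.29. Border macrophage markers summed to 294 CPM in these Cre control and 169 CPM in these Egr2KO libraries, and their part in the difference was not tested. The gate gene Ly9 was at 203 to 230 CPM in these Cre control and 251 to 265 CPM in these Egr2KO libraries. Itgax (147 to 235 against 113.5 to 170 CPM) and Clec7a (333 to 426 against 339 to 397 CPM) overlapped. The part of these genes' states was not tested.

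In CD229-negative cells Egln3 alone was higher in Egr2KO, at 24.1, 27.5 and 19.6 against 9.39, 12.8 and 17.1 CPM (0.89 ± 0.19, adjusted p = 0.042, background 0.144%). This call was lost without Cre control replicate 1 or 2 or any of the Egr2KO replicates, and within tagged libraries. No member passed in CD11c-positive cells (edgeR; 1 with an unadjusted p under 0.05, DESeq2 0, background 0.25%), at baseline (1 and 0, background 0.182%) or in whole populations at 5 weeks (2 and 0, background 0.92%). In the whole populations Ldha was at 240 and 300 CPM in Cre controls and 289 and 286 CPM in Egr2KO, Slc2a1 at 171 and 199 against 190 and 196 CPM, and Egln3 at 78.6 and 99.6 against 97.2 and 111 CPM. These ranges overlapped, and the count was 4, 1 and 1 without Cre control replicate 1, Cre control replicate 2 and Egr2KO replicate 1. For the diet step (4 with an unadjusted p under 0.05, DESeq2 0, background 0.0303%) and the CD229 step (0 with an unadjusted p under 0.05, DESeq2 0, background 0) the difference between Egr2KO and Cre controls was called for no member by edgeR.

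Isoforms of lactate dehydrogenase and of hexokinase did not move together. The 2 glucose transporters did so more often, with Slc2a1 and Slc2a3 called higher in 13 and 9 of the 19 steps and lower in 0. The Ldha share of lactate dehydrogenase mRNA, per length, was 32.9 ± 2.1% in WT baseline cells (SD, n = 3), 47.8 ± 3.7% in CD229-negative, 63.6 ± 0.47% in CD229-positive and 55.5 ± 3.2% in CD11c-positive cells. In Trem2KO it was 33.3%, 35.8% and 44.0%. Ldhb itself passed in none of the 19 steps, with log2 differences from -0.14 to 0.15, and was at 175, 152 and 177 CPM in WT baseline and 172, 184 and 166 CPM in WT CD229-positive libraries. Cre controls went from 32.4% at baseline through 43.6% in Clec7a-negative to 58.1%, 59.3% and 55.2% in the Clec7a-positive fractions at 5 weeks, and to 38.0%, 49.1% and 55.2% in the 6-week fractions. Mef2aKO went from 30.0% at baseline to 32.7% in Clec7a-negative cells and 53.7%, 56.6% and 52.8% in the Clec7a-positive fractions. Among hexokinases the Hk2 share was 51.0% at baseline and 62.4 ± 2.6% in CD229-positive WT cells, while Hk1 went from 8.93% to 4.89% and Hk3 from 40.0% to 32.7%. Pfkl, the liver-type phosphofructokinase, made up 84.0% of its family at baseline and 93.4% in CD229-positive cells.

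The 22 glycolytic and lactate members together took 0.214% of WT baseline counts, 0.327% in CD229-negative, 0.506% in CD229-positive and 0.429% in CD11c-positive cells. Trem2KO cells went from 0.214% to 0.238% and 0.299%. Cre controls at 5 weeks went from 0.213% to 0.290%, 0.434%, 0.485% and 0.429%, and Mef2aKO from 0.211% to 0.235%, 0.410%, 0.450% and 0.402%. At 6 weeks the fractions held 0.241%, 0.309% and 0.378% in Cre controls and 0.266%, 0.376% and 0.404% in Egr2KO. The 4 pentose phosphate members took 0.0464%, 0.0570%, 0.0712% and 0.0677% in the WT groups. Over the 19 steps Egln3 was called higher in 14 and lower in 3, Slc2a1 higher in 13 and lower in 0, and Tpi1 higher in 13 and lower in 1. Pgk1 and Pgam1 were each higher in 12 and lower in 2, Pkm higher in 12 and lower in 1, and Eno2 higher in 12 and lower in 0. G6pdx was higher in 4, its oxidative partner Pgd in 6, and the non-oxidative enzymes Tkt and Taldo1 in 9 and 6, with Pgd and Taldo1 each lower in 1. Hk1 was lower in 3 and higher in none, by edgeR. Steps that share a group are not independent, so these totals describe the table only.

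Neighbouring genes that are not members were read from lists chosen with earlier results known. In the WT CD229 step 11 of 21 tested genes of the hypoxia response were higher and 2 lower (median 0.20), among them the growth factor Vegfa (33.3 against 82.1 CPM, 1.33 ± 0.15), the transcriptional repressor Bhlhe40 (54.9 against 188 CPM, 1.80 ± 0.15) and the adenylate kinase Ak4 (7.20 against 21 CPM, 1.56 ± 0.28). In Trem2KO CD229-positive cells 10 of 21 were lower and 2 higher than in WT, with Vegfa at 16.0, Bhlhe40 at 5.11 and Ak4 at 1.24 CPM. Glycogen genes had 7 of 14 higher and 2 lower in the CD229 step, including the synthase Gys1 (1.26 ± 0.11) and the phosphorylase Pygl (1.42 ± 0.10). Of 16 other glycolytic and hexose genes 5 were higher and 2 lower: the transporter Slc2a6 (51.6 against 163 CPM) and the fructose 2,6-bisphosphatase Tigar (25.6 against 63.2 CPM) rose, and the fructose transporter Slc2a5 (325 against 175 CPM) fell. Pyruvate entry genes had 5 of 12 higher and 2 lower, other pentose phosphate genes 5 of 8 higher and 1 lower, and Bsg, the chaperone of the lactate transporters, rose by 0.66 ± 0.08. Txnip, which holds back glucose uptake, was at 608 CPM in CD229-negative, 196 CPM in CD229-positive and 395 CPM in Trem2KO CD229-positive cells, in a list of sugar-sensing regulators with 1 of 9 higher and 3 lower. For comparison, 24.6% of all genes were higher and 24.2% lower in that step, and nothing particular to a list is read from these counts.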

How the data were processed

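RNA-seq was deposited as 6 tables of raw counts per gene for 81 libraries, and the counts by the authors are the values used. The tables with TPM values were not used. STAR 2.7.0f, HOMER 4.11, fastp 0.20.0 and DESeq2 are named, with the mm10 build, in the submitters' processing notes; what each was used for is not given in the sources used here. Libraries were polyA-selected and kept strand, per the labels' protocols, which also list sodium butyrate and flavopiridol in the buffers.

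Counts were analysed in 5 experiments. The 4-week WT and Trem2KO tables were joined where their shared baseline counts were identical (24910 genes, 214 not joined). Each experiment was fitted with edgeR 4.0.16 (R 4.3.3; filterByExpr, TMM, 1 mean per group, quasi-likelihood F test, Benjamini-Hochberg adjustment over 12387 to 13204 genes, threshold 0.05), and the SE is the log2 difference over the square root of F. The script was tested on simulated data. CPM uses each library's deposited total. Alternatives were DESeq2 1.42.0, RLE factors, no filter, fits of only the groups compared, a replicate block and leaving out each library. Of 43 comparisons 4 were added after seeing the data, as were the alternatives on the PE150 tag and the symbol-matched genes. The members and lists were chosen with earlier results of these data known.

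Named members were 7 fixed genes and up to 3 with the largest changes in each direction in the first comparison of each family, with at least 5 CPM and groups that did not overlap; others named were chosen after their values were seen. Same-numbered replicates deviated together in every pair (correlation over 0.1) only in the 6-week CD229 steps, at 0.17 to 0.288 in Cre controls and 0.121 to 0.176 in Egr2KO.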

Additional observations from a re-analysis of the deposited data

Results flagged for a closer look

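The values here are differences of a step between genotypes that passed edgeR's test of the difference itself, on the log2 scale. For the diet step, Trem2KO minus WT, they were -0.86 for Slc2a1, -0.63 for Gpi1, -0.65 for Pfkl, -0.54 for Aldoa, -0.91 for Tpi1, -0.54 for Gapdh, -0.98 for Pgk1, -0.50 for Eno1, -0.84 for Pkm, -0.74 for Ldha, -2.21 for Egln3 and -0.36 for Tkt. For the CD229 step, Trem2KO minus WT, they were -0.56 for Slc2a1, -0.93 for Slc2a3, -0.29 for Gpi1, -0.47 for Pfkl, -0.39 for Aldoa, -0.56 for Pgam1, -0.38 for Eno1, -0.37 for Ldha, -0.57 for Slc16a1, -0.26 for Pdk1, -0.30 for Hif1a, -0.43 for Bnip3 and -0.31 for Tkt. The Clec7a step differed between Mef2aKO and Cre controls by 0.69 for Pgk1, 0.43 for Slc16a3 and 1.91 for Egln3, and the diet step by -0.60 for Tpi1 and -1.79 for Egln3.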

How the results depend on the processing

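All counts below are members past the test. Of 265 alternative counts 222 were within 1.5 times the reported one, and no direction reversed. DESeq2 gave 1 for the CD229 step in Mef2aKO, 1 for Trem2KO against WT at baseline, 2 for Mef2aKO against Cre controls at baseline, 2 in Clec7a-positive and 2 in Clec7a+CD229+CD11c+ cells, 1 for the baseline CD229 split, 11 for Egr2KO in CD229-positive cells and 5 for the diet difference of Mef2aKO, where RLE factors gave 1. Without a filter the Mef2aKO diet step gave 10, Trem2KO at baseline 1, Mef2aKO at baseline 2, Clec7a-positive 3 and Clec7a+CD229+CD11c+ 2, Egr2KO CD229-negative 4 and CD229-positive 13, and the Mef2aKO differences 8 for Clec7a and 9 for diet. Fits of only the groups compared gave 2 for the Mef2aKO diet step, 2 for its CD229 step, 14 for the Cre control CD11c step at 5 weeks and 9 at 6 weeks, 0, 2, 7 and 3 for Mef2aKO at baseline, Clec7a-positive, Clec7a+CD229+ and Clec7a+CD229+CD11c+, 3 for Egr2KO CD229-negative, and 6 and 0 for the Mef2aKO Clec7a and diet differences. The replicate block gave 1 for the Mef2aKO CD229 step, 2 for Clec7a+CD229+CD11c+, 11 for Egr2KO CD229-positive and 6 for the Mef2aKO diet difference. Libraries without the PE150 tag are 1 in each 6-week group, so member medians are given in place of counts. These were 0.16 for the 6-week Cre control diet step and 0.44 and 0.63 for the Cre control and Egr2KO CD229 steps. They were 0.52 and 0.19 for the CD11c steps of these genotypes, and 0.14 and 0.29 for Egr2KO CD229-negative and CD229-positive. Tagged libraries alone gave 6 for the Cre control CD11c step and 0 for Egr2KO CD229-negative, and the tag as a covariate gave 10 for Egr2KO CD229-positive.

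Leaving out 1 library gave ranges of 3 to 9, 3 to 10 and 7 to 14 for the diet steps of Mef2aKO, 6-week Cre controls and Egr2KO, 1 to 2 and 0 to 1 for the 5-week CD229 steps of Cre controls and Mef2aKO, and 2 to 21 and 7 to 19 for the CD11c steps of Mef2aKO and 6-week Cre controls. Trem2KO at baseline gave 0 to 1. Mef2aKO gave 0 to 2, 6 to 14, 0 to 1, 2 to 5 and 1 to 4 at baseline and in the 4 gates in order. Egr2KO gave 0 to 1, 1 to 10 and 0 to 4 in CD229-negative, CD229-positive and whole populations. The differences gave 7 to 16 for the Trem2KO CD229 step, and 1 to 5 and 1 to 6 for the Mef2aKO Clec7a and diet steps.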

Other observations

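Flt1, a vascular endothelial growth factor receptor listed as an endothelial marker, averaged 0.879 CPM in WT baseline, 59.7 in CD229-negative, 260 in CD229-positive and 186 in CD11c-positive cells, and 0.994, 1.59 and 3.82 CPM in Trem2KO baseline, CD229-negative and CD229-positive cells. The other 11 endothelial markers summed to 85.6, 57.9, 42.3 and 30.7 CPM in the 4 WT groups.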
